A study of Arabidopsis thaliana with 34 samples.

Results

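The genes carried by the plastid and mitochondrial genomes of Arabidopsis thaliana were taken as those whose identifier starts with ATCG (plastid) or ATMG (mitochondrion). The rosette table held 107 plastid and 64 mitochondrial genes, 171 of its 21884 genes, and the seedling table held 47 and 17, 64 of its 18480 genes. Of the 175 genes found in either table, 60 were in both and 4 were in the seedling table alone. The rosette table held 15 genes of photosystem II, 5 of photosystem I, 12 of the NDH complex, 6 of the cytochrome b6f complex, 6 of the ATP synthase, 1 of Rubisco, 4 of the RNA polymerase, 23 of plastid ribosomal proteins, 19 plastid tRNAs and 5 plastid rRNAs. Its mitochondrial genes included 11 of complex I, 34 other proteins and reading frames (32 of them without a symbol) and 3 rRNAs. The seedling table listed no tRNA or rRNA gene of either organelle.

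Bulk RNA was sequenced from whole rosettes and whole seedlings. The rosettes fell into 2 groups of 2 libraries, pif4-2 and vrn2-5 pif4-2, so that both groups carried pif4-2. The seedlings fell into 4 groups of 3 libraries, the wild type Col-0, vrn2-5, prt6-1 and vrn2-5 prt6-1. VRN2 is a subunit of the Polycomb complex PRC2, PIF4 is a bHLH transcription factor of light and temperature responses, and PRT6 is an N-degron ubiquitin ligase that targets VRN2 for breakdown. The labels gave no plant age, light or temperature. All rosette labels, of both groups, carried a letter F whose meaning was not given. The labels also do not state that replicates were grown apart, and the p-values measure only how far these libraries spread. VRN2 had 417 and 449 counts in pif4-2 and 111 and 148 in vrn2-5 pif4-2. PIF4 was counted in every rosette library (539 to 1440), which does not check the pif4-2 label. PRT6 was at 0, 46.0 and 57.7 normalized reads in Col-0 and at 49.6, 142 and 93.8 in prt6-1. In vrn2-5 prt6-1 it was at 122, 59.6 and 94.4, above every Col-0 library. The prt6-1 libraries overlapped Col-0 (49.6 against 57.7). PRT6 was thus not lower in either group labelled prt6-1, and its level does not bear out the label. As for PIF4, a transcript level does not decide the label, and prt6-1 and vrn2-5 prt6-1 below mean the libraries labelled so.

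The plastid genome is transcribed by an imported phage-type polymerase and by a bacterial-type polymerase, PEP, whose core subunits RPOA, RPOB, RPOC1 and RPOC2 the plastid encodes itself and whose sigma factors come from the nucleus. Photosystem and Rubisco genes are transcribed mainly by PEP, the rpo genes mainly by the phage-type enzyme, and many other plastid genes by both. Organelle transcripts mostly lack the long poly(A) tail of nuclear mRNA, and a short tail on them marks RNA for decay. A library selected for poly(A) therefore samples a small and selected fraction of organelle RNA. The seedling libraries were made with an mRNA kit. The rosette library kit was not given in the sources used here. In bulk RNA, fewer cells of a type and less RNA per cell cannot be told apart.

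Rosette libraries held 22375205 and 24489878 counts in pif4-2 and 15912781 and 26322823 in vrn2-5 pif4-2. The second vrn2-5 pif4-2 library was sparse, with 4572 genes at 0 against 695 and 803 in pif4-2 and 2490 in the first. Seedling libraries held 1208836 to 27853214 reads, recovered from the normalized values, and split into 6 deep libraries (Col-0 replicate 3, vrn2-5 replicate 1, prt6-1 replicates 2 and 3, vrn2-5 prt6-1 replicates 1 and 3) and 6 shallow ones of at most 1786079 reads. Green tissue markers made up 5.41% to 7.64% of rosette counts and 4.52% to 8.18% of seedling reads. Root markers summed to 85.6 and 145 counts per 1000000 counts of the library (CPM) in the pif4-2 rosettes and to 189 and 94.4 in vrn2-5 pif4-2, against 2180.0 to 5315 reads per 1000000 reads (RPM) in seedlings, where all 7 were detected in every library. Of the 6 root markers in the rosette table, BGLU21, PER45 and PER57 were at 0 in vrn2-5 pif4-2 replicate 1 and BGLU21, BGLU22 and MLP328 in replicate 2.

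Plastid genes took a small share of every rosette library and a several times larger one in vrn2-5 pif4-2 replicate 1. They summed to 279 and 276 CPM in pif4-2, and to 1186 and 232 CPM in vrn2-5 pif4-2 replicates 1 and 2. The exact 95% binomial intervals, which cover counting error only, were 272 to 286 and 269 to 283 in pif4-2 and 227 to 238 in vrn2-5 pif4-2 replicate 2. The pif4-2 libraries overlapped within counting error, and the vrn2-5 pif4-2 libraries lay on either side of them. Group means were 277 ± 1.92 and 709 ± 675 CPM (SD, n = 2 each), and an exact two-sided permutation test gave p = 1, where 2 against 2 cannot go below 0.333. The summed root markers were also highest in replicate 1 (189 CPM) and the green tissue markers lowest there (5.41%). Most of each rosette root sum was the marker PYK10, with 1885 and 3538 counts in pif4-2 and 2957 and 2395 in vrn2-5 pif4-2. BGLU21, PER45 and PER57 were at 0 in replicate 1, so the root sum there rests on PYK10. The part of these markers in the share was not tested.

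**Figure D1:**
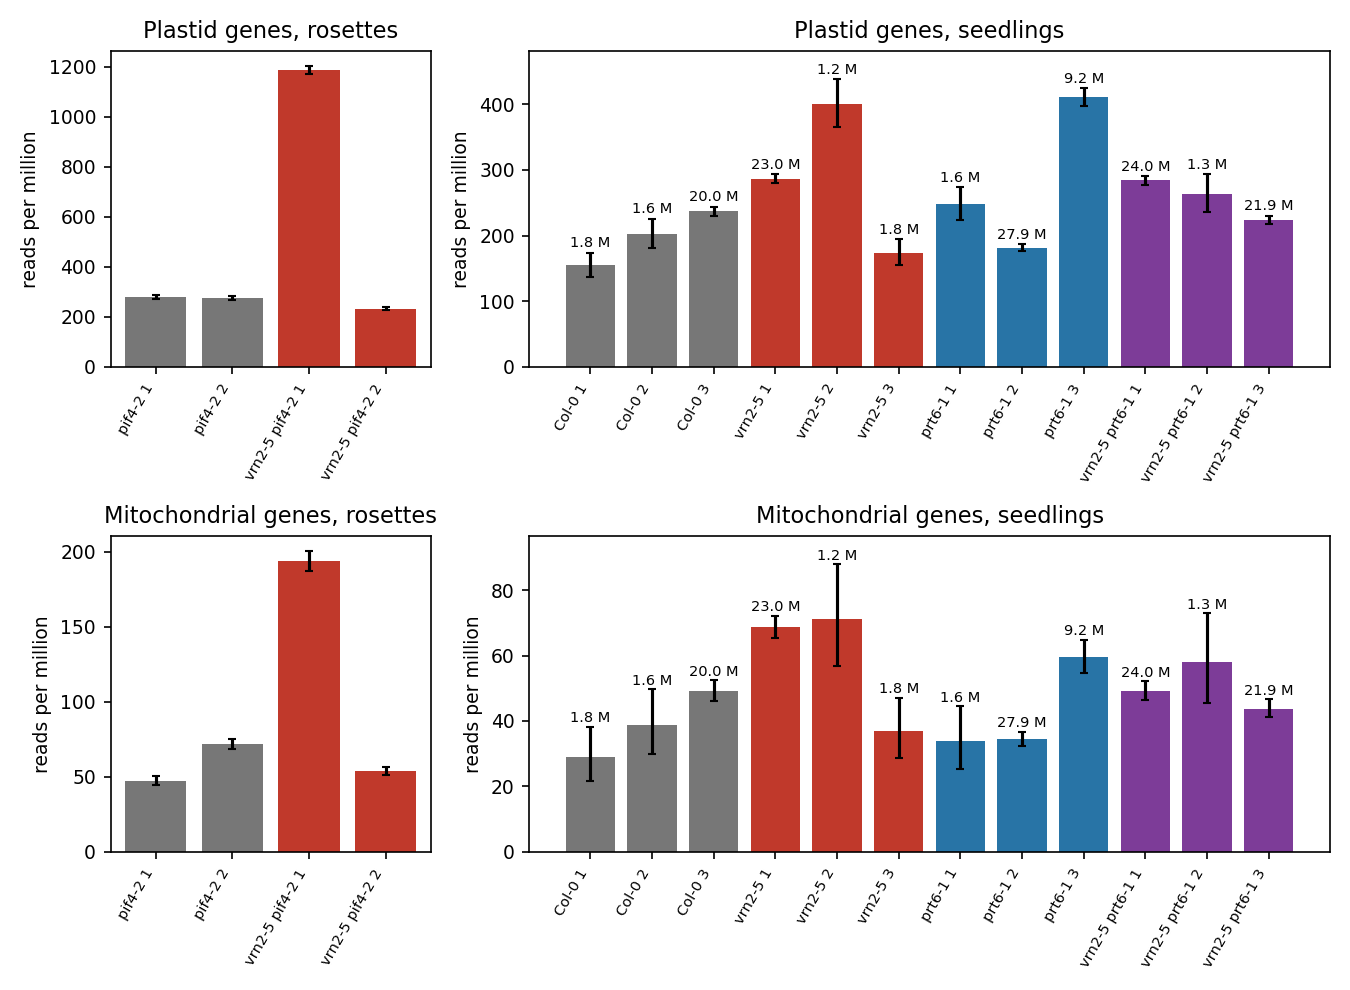
Summed plastid (upper) and mitochondrial (lower) genes, as CPM for the 4 rosette libraries and RPM for the 12 seedling libraries, 1 bar per library in the colour of its genotype, with its exact 95% binomial interval as the error bar and the seedling depth above it. The vrn2-5 pif4-2 replicate 1 rosette stands at 1186 CPM for plastid genes, and no seedling group is apart from another.

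The mitochondrial share was likewise highest in vrn2-5 pif4-2 replicate 1. Mitochondrial genes summed to 47.5 and 72.0 CPM in pif4-2, and to 194 and 53.7 in vrn2-5 pif4-2 replicates 1 and 2. Replicate 2 lay between the pif4-2 libraries. The ratio of plastid to mitochondrial counts was 5.87 and 3.83 in pif4-2 and 6.12 and 4.33 in vrn2-5 pif4-2, so the groups overlapped. The group means of the mitochondrial share were 59.7 ± 17.3 and 124 ± 99.1 CPM (SD, n = 2 each; exact two-sided permutation p = 0.667).

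The plastid genes did not all stand at the same ratio in vrn2-5 pif4-2 replicate 1. Summed by class, the photosystems, Rubisco, the NDH complex and rRNA stood 5.12- to 12.4-fold above the pif4-2 mean. The RNA polymerase genes stood level with it. Single genes of the former classes that averaged at least 10 counts ran from 1.27 (photosystem I) to 26.6 (NDH). Their median ratio was 5.19 for photosystem II, 8.64 for photosystem I and 6.76 for NDH. The 15 photosystem II genes together had 48.9 and 54.2 CPM in pif4-2, and 460.1 and 42.9 in vrn2-5 pif4-2 replicates 1 and 2. The 4 RNA polymerase genes had 39.6 and 37.6 CPM in pif4-2, and 40.4 and 12.9 in vrn2-5 pif4-2. Photosystem II thus made up 17.5% and 19.6% of plastid counts in pif4-2, 38.8% in vrn2-5 pif4-2 replicate 1 and 18.4% in replicate 2. Its gene psbA alone made up 25.5% of plastid counts in replicate 1. The RNA polymerase genes made up 14.2% and 13.6% in pif4-2, and 3.41% and 5.56% in vrn2-5 pif4-2, below pif4-2 in both libraries.

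**Figure D2:**
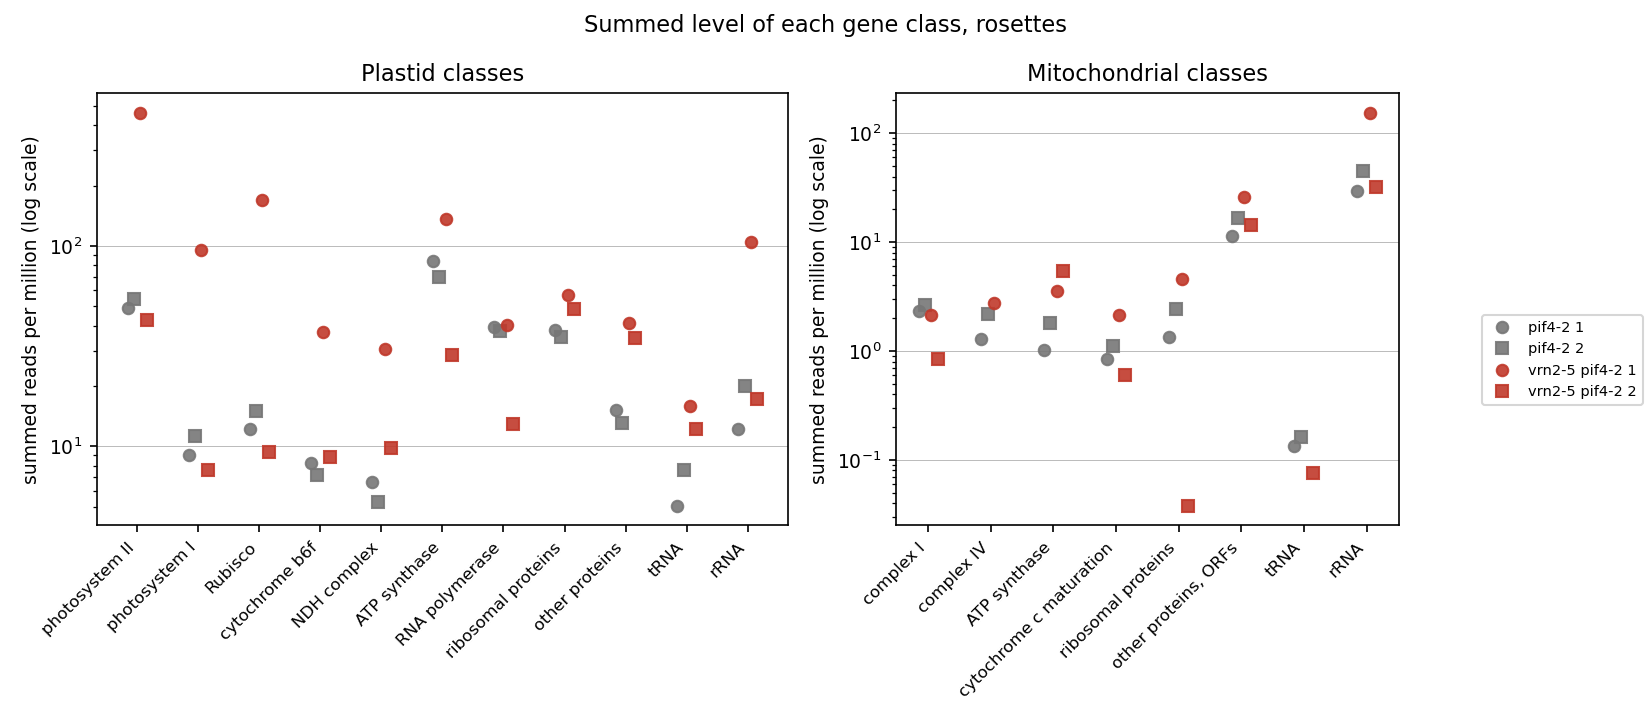
Summed CPM (log axis) of each gene class in the 4 rosette libraries, plastid and mitochondrial classes apart, 1 point per library, with classes at 0 in a library not drawn. Photosystem II stands at 460.1 CPM in vrn2-5 pif4-2 replicate 1 against 48.9 and 54.2 in pif4-2, while the RNA polymerase class stands at 40.4 against 39.6 and 37.6.

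For the other classes, the ratio of vrn2-5 pif4-2 replicate 1 to the pif4-2 mean was 9.40 for photosystem I, 12.4 for Rubisco, 6.51 for rRNA, 5.12 for the NDH complex and 4.79 for cytochrome b6f. It was 2.52 for tRNA, 1.77 for the ATP synthase and 1.56 for ribosomal proteins. In replicate 2 the same ratio was 0.831 for photosystem II, 0.750 for photosystem I, 0.685 for Rubisco, 0.371 for the ATP synthase and 0.335 for the RNA polymerase. It was above 1 there for the NDH complex (1.64), cytochrome b6f (1.15), ribosomal proteins (1.33), tRNA (1.93) and rRNA (1.07). The 11 other plastid proteins stood at 2.91 in replicate 1 and 2.45 in replicate 2, the highest replicate 2 ratio of the plastid classes. A few genes carried the summed NDH and ribosomal protein ratios in replicate 2: over members averaging at least 10 counts the median ratio was 0.392 for NDH, with 4 of 7 more than 2-fold below, and 0.846 for ribosomal proteins, with 7 of 15 more than 2-fold below.

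Of the 107 plastid genes of the rosette table, 77 averaged at least 10 counts and 30 did not. The average ran over all 4 rosette libraries, so a gene could pass through its vrn2-5 pif4-2 counts alone. petN and ATCG00620 are examples, with under 10 counts in both pif4-2 libraries. They are not the only ones, and how many of the 77 passed in this way was not counted. This filter, the same for all genes, can raise the counts of genes above pif4-2. Among the 77, 53 stood more than 2-fold above the pif4-2 mean in vrn2-5 pif4-2 replicate 1 (68.8%), against 5.94% of all 18451 genes at that depth, and 3 stood more than 2-fold below, against 5.58%. Their median ratio was 3.29, and 1.07 over all genes. In replicate 2, 21 of the 77 stood more than 2-fold above (27.3%, against 9.7% of all genes) and 36 more than 2-fold below (46.8%, against 24.4%), with a median of 0.590 beside 0.855 over all genes. By class in replicate 1, 12 of 13 photosystem II genes, 7 of 7 NDH genes, 5 of 5 cytochrome b6f genes and 4 of 4 rRNAs stood more than 2-fold above, and 0 of 4 RNA polymerase genes, whose ratios ran from 1.03 to 1.16.

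**Figure D3:**
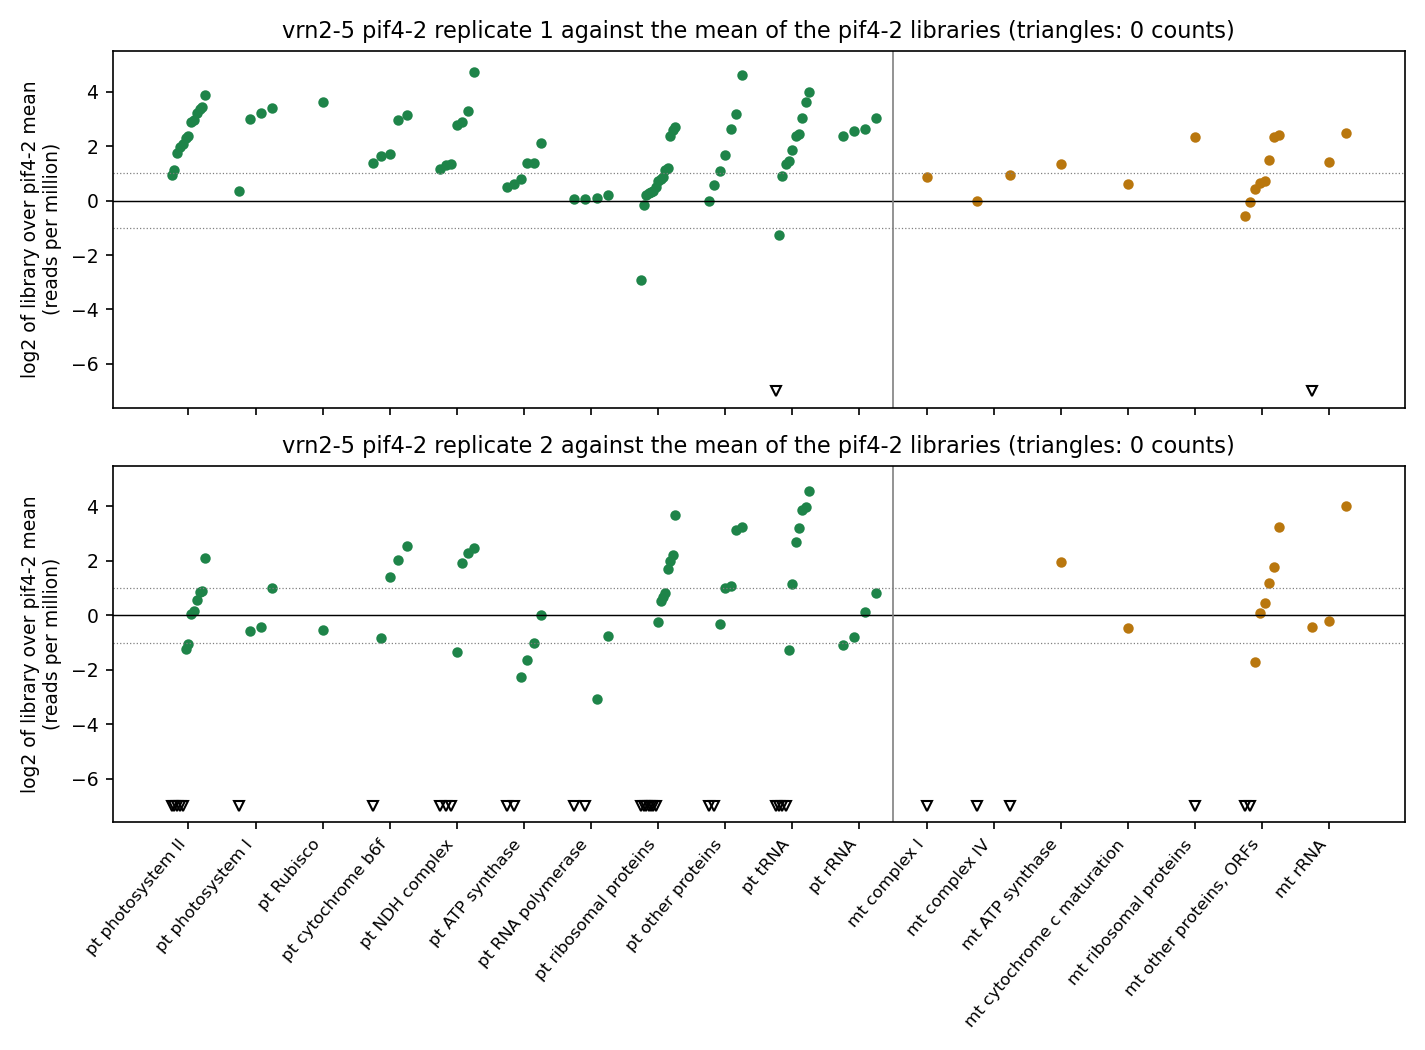
The log2 ratio of each vrn2-5 pif4-2 library to the pif4-2 mean CPM, for plastid (green) and mitochondrial (brown) genes averaging at least 10 counts, by class, 1 point per gene, with triangles for genes at 0 and dotted lines at 2-fold. In replicate 1 the linear ratios run from 1.93 to 14.5 for photosystem II genes and from 1.03 to 1.16 for RNA polymerase genes, and in replicate 2 the points scatter on both sides of the line of no difference.

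The plastid genes with the most counts in that library belonged to the photosystem II and Rubisco classes. psbA (ATCG00020, plastid genome, minus strand, positions 383 to 1444; TAIR10 per the submitters' processing notes), which encodes the D1 protein of the photosystem II reaction centre, had 386 and 596 counts in pif4-2, and 4805 and 265 in vrn2-5 pif4-2. rbcL (ATCG00490, plus strand, 54958 to 56397), the large subunit of Rubisco, had 274 and 368 counts in pif4-2, and 2687 and 246 in vrn2-5 pif4-2. In both genes replicate 1 was far above pif4-2 and replicate 2 below it, so the groups overlapped. psbA took 25.5% and rbcL 14.2% of all plastid counts in replicate 1. The edgeR quasi-likelihood log2 fold changes of vrn2-5 pif4-2 over pif4-2 were 2.80 (SE 1.39) for psbA and 2.60 (SE 1.21) for rbcL.

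The photosystem I reaction centre genes had the same pattern. psaA had 85 and 118 counts in pif4-2, and 728 and 77 in vrn2-5 pif4-2. psaB (ATCG00340) had 98 and 135 in pif4-2, and 730 and 97 in vrn2-5 pif4-2. The ratios to the pif4-2 mean were 10.6 for psaA and 9.27 for psaB in replicate 1, and below 1 in replicate 2. Among photosystem II genes, psbD, encoding the D2 protein, had 93 and 107 counts in pif4-2 and 505 and 165 in vrn2-5 pif4-2, which is above pif4-2 in both libraries at ratios of 7.44 and 1.47. It was named after its values were seen, as was its neighbour psbC. psbC, which encodes the antenna protein CP43 and overlaps psbD on the same strand, had ratios of 7.74 and 0.424. psbI, a small photosystem II subunit, had 110 and 98 counts in pif4-2 and 137 and 216 in vrn2-5 pif4-2, with ratios of 1.93 and 1.84.

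The RNA polymerase and ATP synthase genes lay elsewhere. rpoB (ATCG00190, minus strand, 23111 to 26329), the PEP beta subunit, had 472 and 471 counts in pif4-2, and 330 and 313 in vrn2-5 pif4-2, with ratios of 1.03 and 0.590. rpoC1 had 179 and 231 counts in pif4-2 and 147 and 27 in vrn2-5 pif4-2. Neither gene separated the groups in CPM, since replicate 1 lay at the pif4-2 level. atpB (ATCG00480, minus strand, 52660 to 54156), the ATP synthase beta subunit, had 1127 and 992 counts in pif4-2, and 1012 and 247 in vrn2-5 pif4-2. It was the most counted plastid gene in pif4-2, with 18.1% and 14.7% of plastid counts, and its replicate 2 ratio of 0.207 was far below its replicate 1 ratio of 1.40. atpE, the epsilon subunit, shares 4 bases with the atpB gene and had 336 and 289 counts in pif4-2 and 322 and 354 in vrn2-5 pif4-2. Leaving out each rosette library in turn gave rpoB log2 fold changes from -0.62 to -0.08, the upper end near no difference. In CPM rpoB was below the pif4-2 mean in replicate 2 alone (0.590, against 1.03 in replicate 1). psbD stayed positive, from 0.69 to 2.77, which follows from both vrn2-5 pif4-2 libraries lying above both pif4-2 libraries. The log2 fold changes (edgeR) were -0.32 (SE 0.300) for rpoB and -0.39 (SE 0.792) for atpB.

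Several short genes were high in replicate 2 as well. petL, a small cytochrome b6f subunit, had 19 and 8 counts in pif4-2 and 29 and 90 in vrn2-5 pif4-2. petN, another small subunit of that complex, had 8 and 9 in pif4-2 and 19 and 39 in vrn2-5 pif4-2. ndhC, an NDH membrane subunit, had 17 and 9 in pif4-2 and 23 and 82 in vrn2-5 pif4-2. For all of these the libraries of the groups did not overlap in CPM, and replicate 2 was the higher. The neighbouring NDH gene ndhK had 53 and 37 counts in pif4-2 and 69 and 20 in vrn2-5 pif4-2, and its groups overlapped. The ribosomal protein genes rpl32 (197 and 167 against 204 and 327 counts) and rpl16 (126 and 128 against 123 and 207) did not overlap between groups in CPM, at ratios of 1.64 and 1.59 for rpl32 and 1.42 and 1.45 for plastid rpl16. clpP, a subunit of the Clp protease, had 90 and 87 in pif4-2 and 59 and 201 in vrn2-5 pif4-2, and cemA, an inner envelope protein gene, had 140 and 122 in pif4-2 and 189 and 118 in vrn2-5 pif4-2.

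Over the 77 plastid genes, 26 had both vrn2-5 pif4-2 libraries above both pif4-2 libraries (33.8%), against 17.7% of all genes. The 77 passed a filter that included the vrn2-5 pif4-2 libraries, which favours genes high there. A single plastid gene, the tRNA gene ATCG00450, had both below (1.3%), against 15.3% of all genes. ATCG00450 had 28 and 87 counts in pif4-2 and 16 and 26 in vrn2-5 pif4-2, and the other named tRNA gene, ATCG00620, had 5 and 9 in pif4-2 and 17 and 72 in vrn2-5 pif4-2. The rRNA genes ATCG00950 and ATCG01180, copies in the inverted repeat, had 82 and 143, and 94 and 165 counts in pif4-2. In vrn2-5 pif4-2 they had 621 and 220, and 537 and 155. Both were highest in replicate 1.

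In CPM per kb of gene length, psbA had the highest mean level of the plastid genes (83.2), followed by rpl32 (64.3), psbI (58.0), atpE (37.9), rbcL (35.7) and atpB (27.4), against 5.67 for rpoB. In pif4-2 alone the order differed, with rpl32 at 55.4 and 42.9 and psbA at 16.2 and 22.9. The ranks of the 171 genes correlated at a Spearman rho of 0.88 between the pif4-2 libraries, at 0.80 and 0.78 between them and replicate 1, and at 0.56 and 0.59 between them and replicate 2, given as a description over genes that share each library. The log2 ratio in replicate 1 had a rho of 0.03 with gene length over the 77 plastid genes.

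Missing genes accompanied the sparse library. Plastid genes with at least 1 count numbered 100 and 103 of 107 in pif4-2 and 95 and 54 in vrn2-5 pif4-2, and mitochondrial ones 52 and 55 of 64 in pif4-2 and 33 and 18 in vrn2-5 pif4-2. Of genes at 1 to 2 CPM in pif4-2, replicate 2 had 4 of 10 plastid, 3 of 6 mitochondrial and 35.3% of 1217 nuclear genes at 0, while replicate 1 had 0 plastid, 0 mitochondrial and 4.19% of nuclear genes at 0. At 2 to 4 CPM replicate 2 had 5 of 13 plastid genes at 0 (38.5%) against 15.7% of 1632 nuclear genes, and from 4 CPM up 1 of 21 (4.76%) against 0.781%. The part of such zeros in the ratios of replicate 2 was not tested. rpoC2, for example, had 159 and 163 counts in pif4-2, 114 in replicate 1 and 0 in replicate 2, while TIC214 (ATCG01130), a large protein of the inner envelope import machinery, had 24 and 48 in pif4-2, 76 in replicate 1 and 347 in replicate 2. These 2 genes were chosen after their values were seen.

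In the mitochondrial genome the rRNAs led in every library. ATMG00020 (8848 to 11415) had 295 and 593 counts in pif4-2, and 1657 and 368 in vrn2-5 pif4-2. ATMG01390 (361350 to 363284) had 352 and 503 in pif4-2, and 777 and 409 in vrn2-5 pif4-2. Together with ATMG01380, another rRNA, they summed to 29.2 and 44.8 CPM in pif4-2 and 153 and 32.3 in vrn2-5 pif4-2, so that replicate 1 stood 4.13-fold above the pif4-2 mean and replicate 2 within the pif4-2 range. The reading frame ATMG00030 had 37 and 50 counts in pif4-2 and 147 and 15 in vrn2-5 pif4-2, and ATMG01370 had 48 and 83 in pif4-2 and 73 and 99 in vrn2-5 pif4-2. The log2 fold change of ATMG00020 was 1.57 (SE 0.895, edgeR).

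Protein genes of the respiratory chain had few counts, and several were at 0 in vrn2-5 pif4-2 replicate 2. The complex I genes summed to 2.32 and 2.65 CPM in pif4-2 and to 2.14 and 0.836 in vrn2-5 pif4-2, below pif4-2 in both libraries. nad4L, a complex I subunit, had 16 and 20 counts in pif4-2, 22 in replicate 1 and 0 in replicate 2. cox1 and cox2, core subunits of cytochrome c oxidase, had 14 and 39, and 15 and 15 counts in pif4-2, 34 and 10 in replicate 1, and 0 in replicate 2. atp6-2, an ATP synthase membrane subunit, went the other way, with 23 and 42 in pif4-2 and 56 and 142 in vrn2-5 pif4-2, and its groups did not overlap. Of the ribosomal protein genes, rps3 had 12 and 22 counts in pif4-2 and 57 and 0 in vrn2-5 pif4-2, and mitochondrial rpl16, which overlaps it, had 14 and 12 in pif4-2 and 8 and 0 in vrn2-5 pif4-2. ccb206, a cytochrome c maturation gene, had 17 and 22 in pif4-2 and 20 and 16 in vrn2-5 pif4-2. The remaining named genes, YMF19, ND1, ccmFN1 and the tRNAs ATMG09730 and ATMG09740, had at most 3 counts in any library but for 9 of ccmFN1 in replicate 1 and 22 of ND1 in replicate 2.

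Of the 64 mitochondrial genes, 17 averaged at least 10 counts over all rosette libraries, by the same filter as the plastid genes. In replicate 1, 7 of the 17 stood more than 2-fold above the pif4-2 mean (41.2%) and 1 more than 2-fold below, beside the shares of all genes given for the plastid, and in replicate 2 the counts were 5 (29.4%) and 7 (41.2%). The groups did not overlap for 4 of 17 (23.5%), all higher in vrn2-5 pif4-2, against 17.7% of all genes, and for 0 lower, against 15.3%.

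No plastid or mitochondrial gene passed the test between the rosette groups. edgeR's quasi-likelihood test with Benjamini-Hochberg adjustment called 0 of 18561 genes (0%), with 441 at an unadjusted p under 0.05. It tested 71 plastid and 19 mitochondrial genes and left out 36 and 45 with low counts. Of the 90 tested, 9 had an unadjusted p under 0.05, all higher in vrn2-5 pif4-2, and the smallest adjusted p was 0.945 (edgeR). DESeq2, run without a filter on low counts, called 7 of 21884 genes, 0 of them here. At an unadjusted p under 0.05 DESeq2 had 21 of the 171 organelle genes and 567 of all genes. The authors' deposited table gave an adjusted p under 0.05 to 7 of 21884 genes and to 0 of the 171. The median log2 fold change was 1.16 over the plastid genes tested (57 of 71 positive) and 0.14 over the mitochondrial ones (10 of 19 positive), beside -0.01 over all genes (49.2% positive). By class it was 1.56 for photosystem II, 2.04 for photosystem I, 1.63 for NDH and -0.88 for the RNA polymerase. The plastid median rests on replicate 1: without that library it was -0.29, and without replicate 2 it was 1.66.

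In seedlings the plastid share ranged widely within genotypes, and the groups overlapped. Plastid genes summed to 155, 203 and 237 RPM for Col-0, to 286, 400.4 and 174 for vrn2-5, to 248, 182 and 411 for prt6-1, and to 284, 264 and 224 for vrn2-5 prt6-1. Means were 198 ± 41.5, 287 ± 113, 280.2 ± 118 and 257 ± 30.4 (SD, n = 3 each). No pair of groups was apart. Mitochondrial genes summed to 29.1, 38.9 and 49.2 RPM for Col-0, 68.6, 71.1 and 37.0 for vrn2-5, 34.0, 34.5 and 59.6 for prt6-1, and 49.3, 58.0 and 43.8 for vrn2-5 prt6-1. Exact two-sided permutation tests of 5 genotype pairs for each organelle gave p between 0.2 and 0.9, with 0.10 the smallest that 3 against 3 allows, and Benjamini-Hochberg values over the 10 tests from 0.75 to 0.9.

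The gene classes spread unequally across the 6 deep seedling libraries. Photosystem II ran from 62.4 to 183 RPM, a ratio of 2.93 between the highest and the lowest library. The ratio was 2.97 for Rubisco (17.8 to 53.0 RPM), 2.73 for photosystem I, 2.81 for cytochrome b6f and 3.98 for NDH. It was 1.41 for the ATP synthase (26.9 to 37.9), 1.41 for ribosomal proteins (23.0 to 32.6) and 1.84 for the RNA polymerase (14.9 to 27.5). Photosystem II was highest in prt6-1 replicate 3 (183) and lowest in prt6-1 replicate 2 (62.4), libraries of the same genotype.

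**Figure D4:**
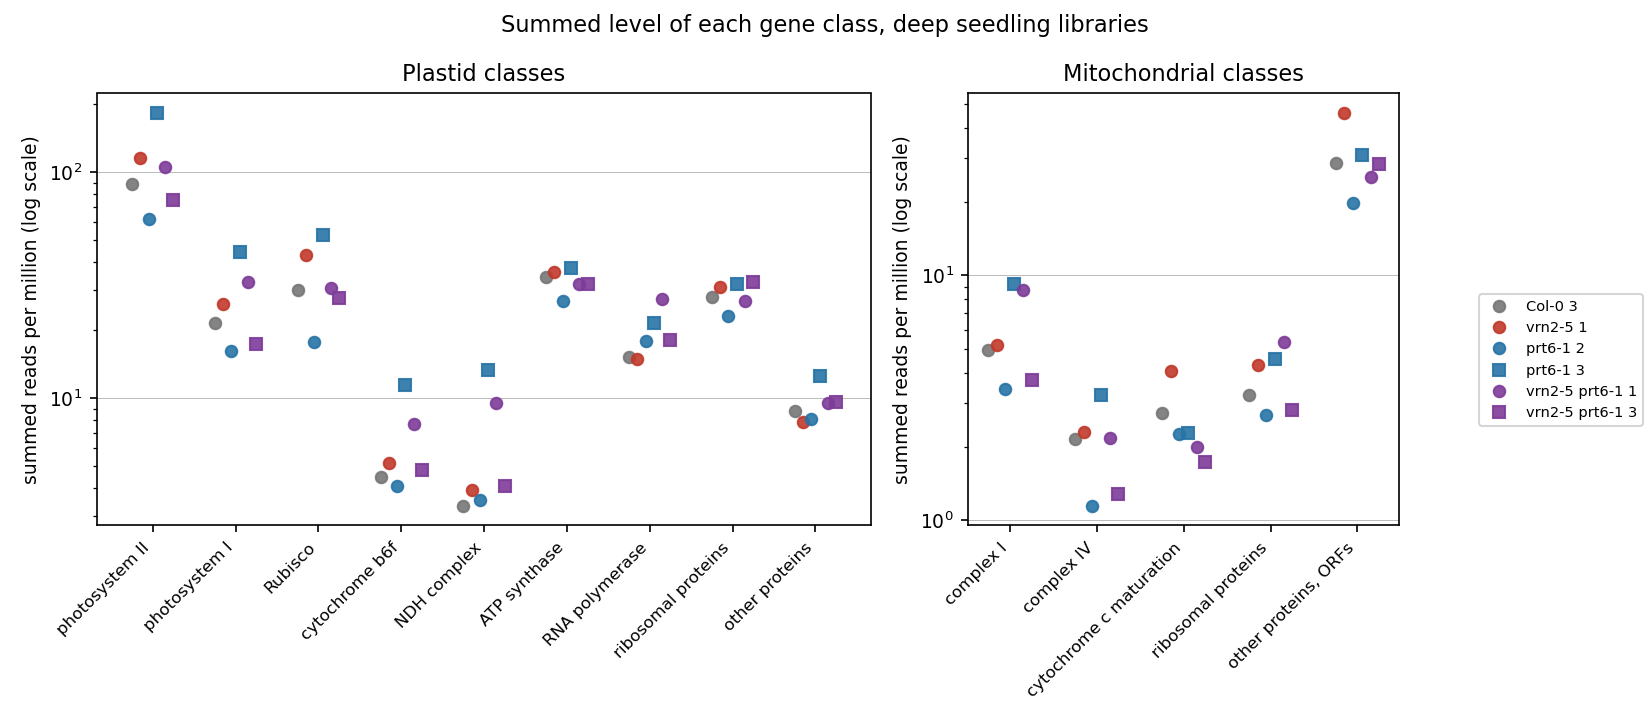
Summed RPM (log axis) of each plastid and mitochondrial gene class in the 6 deep seedling libraries, 1 point per library in the colour of its genotype. Photosystem II runs from 62.4 to 183 RPM and the ATP synthase from 26.9 to 37.9.

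psbA and rbcL varied between libraries of the same genotype. psbA stood at 259, 227 and 333 normalized reads for Col-0, 464, 784 and 194 for vrn2-5, 389, 236 and 719 for prt6-1, and 393, 385 and 282 for vrn2-5 prt6-1. rbcL stood at 169, 209 and 174 for Col-0, 264, 269.8 and 154 for vrn2-5, 175, 102 and 298 for prt6-1, and 164, 225 and 165 for vrn2-5 prt6-1. psbA and rbcL were the leading plastid genes in all 12 libraries, psbA with 18.7% to 32.4% of plastid reads, and their high libraries were vrn2-5 replicate 2 and prt6-1 replicate 3 for psbA and prt6-1 replicate 3 for rbcL. Groups overlapped for both genes.

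The other well covered photosystem genes spread alike over the deep libraries. psaA ran from 5.74 to 17.1 RPM and psaB from 6.61 to 19.6, both with a ratio of the highest to the lowest close to 3. psbC ran from 8.37 to 22.2 and psbB, the gene of the antenna protein CP47, from 5.85 to 14.7. clpP, from 3.57 to 5.5, and the ribosomal protein gene rpl16, from 3.15 to 4.61, were narrower. Not all ribosomal protein genes were. The ratio of the highest to the lowest was 1.46 for rpl16 and 1.89 for rpl14, but 2.81 for rpl32 and 2.70 for rps14. It was 2.52 for psbB and 2.65 for psbC. rpoC1 ran from 1.05 to 4.78, wider than rpoB (13.3 to 20.1), at an average of 51.8 reads. psbB, psbC, rps14 and rpl14 were named after their values were seen.

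psbD had its lowest mean for Col-0, 11.8 ± 7.79 normalized reads, against 43.4 ± 23.9 for vrn2-5, 32.3 ± 23.7 for prt6-1 and 26.1 ± 10.1 for vrn2-5 prt6-1 (SD, n = 3 each). By library it stood at 7.5, 7.08 and 20.8 normalized reads for Col-0, 36.7, 70.0 and 23.5 for vrn2-5, 19.1, 18.1 and 59.7 for prt6-1, and 25.0, 36.7 and 16.5 for vrn2-5 prt6-1. All vrn2-5 libraries were above all Col-0 libraries, while prt6-1 and vrn2-5 prt6-1 overlapped Col-0. The margin was narrow, 23.5 in the shallow vrn2-5 replicate 3 against 20.8 in Col-0 replicate 3. How many of all genes stood apart in this way was not counted. The log2 fold change of psbD in vrn2-5 against Col-0 was 1.51 (SE 0.520, limma, unadjusted p = 0.0148, adjusted p = 1), and the interaction of vrn2-5 and prt6-1 was -1.64 (SE 0.736, limma, unadjusted p = 0.0475, adjusted p = 1). The Col-0 values are 2, 2 and 72 recovered reads, so the low Col-0 mean rests on the shallow libraries with 2 reads each, and the deep Col-0 library stood at 20.8.

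rpoB and atpB varied little among the deep libraries, with a ratio of the highest to the lowest RPM of 1.51 and 1.3 against 3.10 for psbA. rpoB stood at 56.2, 67.3 and 78.5 normalized reads for Col-0, 81.5, 94.9 and 73.7 for vrn2-5, 99.2, 80.1 and 95.6 for prt6-1, and 107, 96.3 and 91.1 for vrn2-5 prt6-1. The prt6-1 and vrn2-5 prt6-1 libraries were all above the Col-0 libraries, and vrn2-5 overlapped Col-0. The margin for prt6-1 was narrow, 80.1 against 78.5, and how many of all genes stood apart in this way was not counted. The log2 fold change was 0.52 (SE 0.182, limma, unadjusted p = 0.0159, adjusted p = 0.806) for vrn2-5 prt6-1 against Col-0, 0.42 (SE 0.182) for prt6-1 and 0.29 (SE 0.182) for vrn2-5. atpB stood at 71.2, 92.1 and 110.3 for Col-0, 102, 109.9 and 114 for vrn2-5, 145, 84.6 and 84.0 for prt6-1, and 84.0, 128 and 86.8 for vrn2-5 prt6-1, with overlap between all groups. The mitochondrial reading frame ATMG00030 stood at 29.99, 60.2 and 101 for Col-0, 184, 139.9 and 77.1 for vrn2-5, 83.9, 68.0 and 118 for prt6-1, and 88.6, 119 and 117 for vrn2-5 prt6-1, where vrn2-5 overlapped Col-0.

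**Figure D5:**
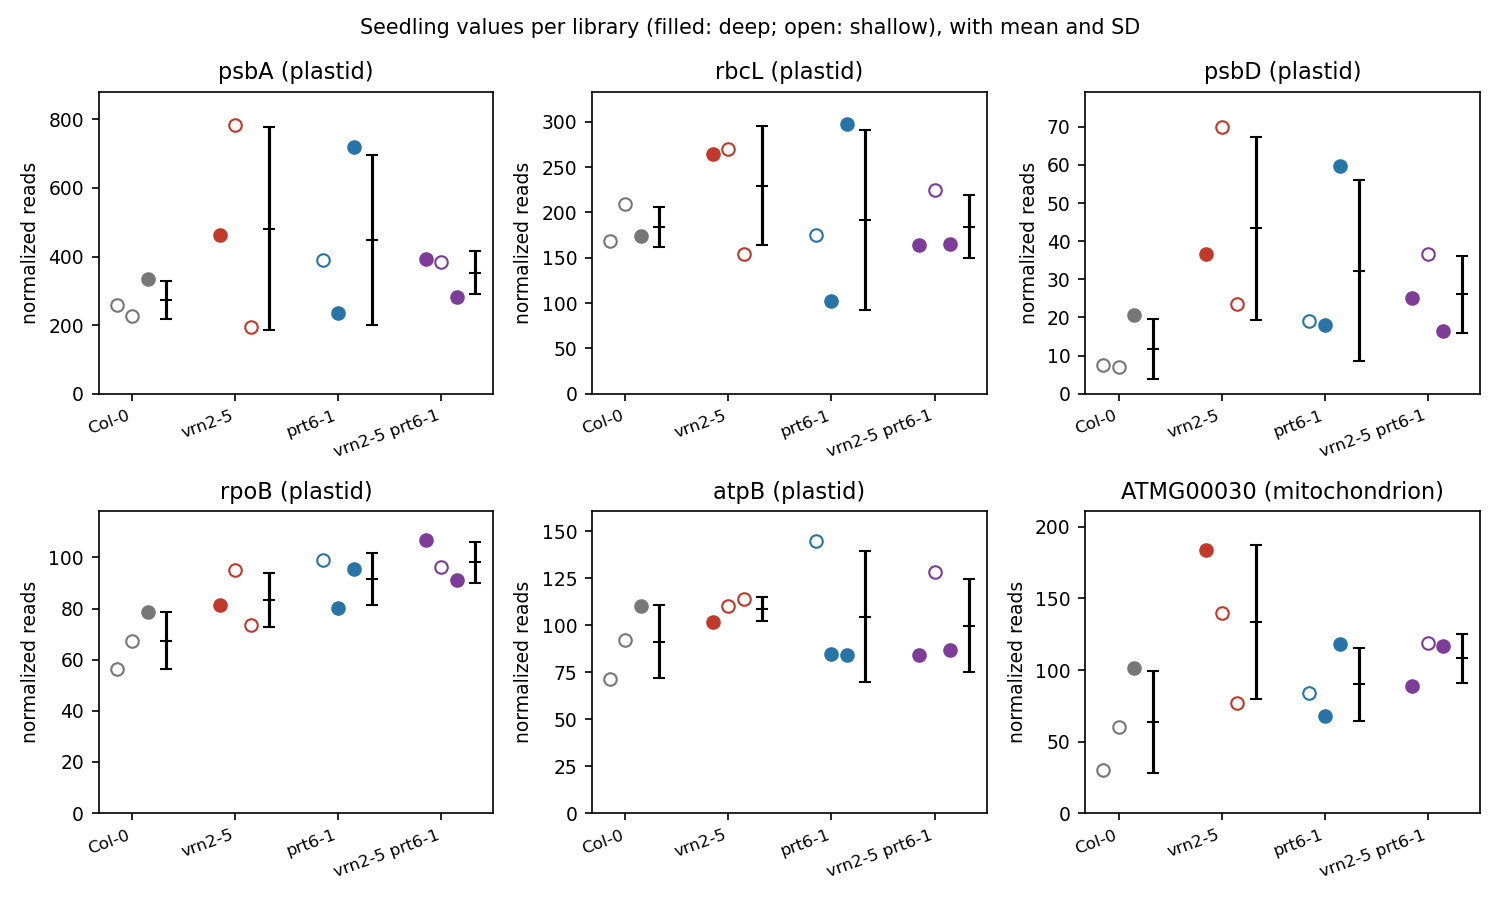
Normalized reads (linear axis from 0) of 5 plastid genes and the mitochondrial ATMG00030 in the 12 seedling libraries by genotype, filled for deep and open for shallow libraries, with the mean and SD of each group as a bar. psbA runs from 194 to 784 and rpoB from 56.2 to 107.

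No organelle gene was called in any of the 6 seedling comparisons. limma tested 27 of 47 plastid and 7 of 17 mitochondrial genes among 16820 genes, the others averaging under 10 normalized reads. It called 4 genes for vrn2-5 against Col-0 (0.0238%), 31 for prt6-1 against Col-0 (0.184%), 35 for vrn2-5 prt6-1 against Col-0 (0.208%), 0 for vrn2-5 prt6-1 against prt6-1 (0%), 35 for vrn2-5 prt6-1 against vrn2-5 (0.208%) and 1 for the interaction (0.00595%). Among the 34 organelle genes, 3, 3, 1, 0, 0 and 1 had an unadjusted p under 0.05 in that order, against 480, 696, 872, 191, 1039 and 225 of all genes. The test of edgeR on the recovered reads also called 0 organelle genes of 46 tested, and edgeR and DESeq2 both called 0 genes of any kind for vrn2-5 prt6-1 against prt6-1. The replicate 3 libraries of the 4 genotypes deviated together, at correlations of 0.288 to 0.560 over their 6 pairs. With a term for replicate 3, limma called 57 genes for vrn2-5 prt6-1 against Col-0 and 54 against vrn2-5, again with 0 organelle genes.

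The comparisons with Col-0 share its 3 libraries. Their median log2 fold change over the 27 plastid genes was 0.31 (22 positive) for vrn2-5, 0.24 (19 positive) for prt6-1 and 0.17 (19 positive) for vrn2-5 prt6-1, beside medians of -0.00, 0.01 and 0.01 over all genes. Against prt6-1 and vrn2-5, vrn2-5 prt6-1 had medians of -0.06 (10 positive) and -0.14 (9 positive). The prt6-1 median rests on prt6-1 replicate 3, without which it was 0.00. The -0.06 turned to 0.19 without that library, and to 0.06 and 0.03 without vrn2-5 prt6-1 replicates 2 and 3. The -0.14 turned to 0.10 (16 of 27 positive) without vrn2-5 prt6-1 replicate 2, and was -0.37 without vrn2-5 replicate 3. For the 7 mitochondrial genes the medians against Col-0 were 0.31, -0.17 and 0.06. The -0.17 turned to 0.14, 0.15 and 0.15 without prt6-1 replicate 1, prt6-1 replicate 2 and Col-0 replicate 3. The 0.31 ran from 0.05 when vrn2-5 replicate 2 was left out to 0.61 when replicate 3 was, and leaving out Col-0 replicate 1 gave 0.17. The 0.06 turned to -0.03 when Col-0 replicate 1 was left out and to -0.04 for vrn2-5 prt6-1 replicate 2, and was 0.44 for replicate 3. Between 7 and 9 mitochondrial genes passed the filter in these fits.

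Rosettes and seedlings shared part of their order of levels. Over 37 plastid genes averaging at least 10 counts or reads in both tables, the mean level per kb had a Spearman rho of 0.75 between them, with gene length as a shared factor. The log2 ratio of vrn2-5 pif4-2 replicate 1 to pif4-2 across the same genes had a rho of 0.68 with the deviation of seedling library prt6-1 replicate 3 from the mean of the other deep libraries and of -0.68 with that of prt6-1 replicate 2. For the other deep libraries rho was -0.19 (Col-0 replicate 3), 0.06 (vrn2-5 replicate 1), 0.09 and -0.41 (vrn2-5 prt6-1 replicates 1 and 3). Each deviation is taken from the mean of the other deep libraries, so these values share libraries and are not independent of each other.

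Genes of the nucleus that serve the organelles had no call in any comparison by edgeR or limma, with 0 to 2 genes of each list at an unadjusted p under 0.05. In rosettes, the nuclear subunits of plastid complexes had a median log2 fold change of 0.31, with 25 of 26 positive. Their summed level was 8.74% and 8.25% of counts in pif4-2, 7.97% in vrn2-5 pif4-2 replicate 1 and 12.7% in replicate 2. It was thus below pif4-2 in the library where the plastid genes were high and above it in the sparse library alone. The nuclear plastid transcription machinery (sigma factors, PEP-associated proteins and the phage-type polymerases) had -0.15, with 7 of 21 positive. Nuclear genes of organelle RNA turnover had -0.39 (4 of 9 positive), and nuclear subunits of mitochondrial complexes -0.10 (3 of 12 positive), beside -0.01 over all genes. In vrn2-5 against Col-0 seedlings the medians were -0.06 over 25 plastid complex subunits, -0.10 over 21 transcription genes, -0.16 over 9 RNA turnover genes (0 positive) and -0.10 over 12 mitochondrial complex subunits.

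Copies limit some of these counts. The inverted repeat of the plastid genome carries genes in identical pairs, and the tables treated them differently. In seedlings, 5 such pairs had identical values in all 12 libraries. Both copies entered the seedling sums and class ranges, and the 4 NDH genes there include both ndhB1 copies. Both rpl2 copies, with identical fits, are among the 27 plastid genes tested, so the medians and positive counts hold them both. In rosettes the first rpl2 copy (ATCG00830) had 3, 7, 1 and 6 counts in pif4-2 replicates 1 and 2 and vrn2-5 pif4-2 replicates 1 and 2, while the second (ATCG01310) had 115, 92, 64 and 99. The levels of these genes are therefore uncertain per copy. A nuclear insertion of mitochondrial DNA on chromosome 2 carries copies as well. In seedlings AT2G07706, annotated within it, ran from 520.5 to 1560.4 normalized reads, above the sum of all 17 mitochondrial genes, 195 to 429.7, and ATMG00980 had the same value as the nuclear AT2G07675 in every library. In rosettes AT2G07706 had 1, 0, 4 and 0 counts.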

How the data were processed

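Rosette values are whole-number counts per gene as deposited by the authors, with gene positions and lengths (other values of the same deposited table). Seedling values are the authors' normalized reads, a signal of counts divided by a size factor per library; whole reads were recovered for 100% of values (tolerance 0.01 reads). Bowtie, DESeq2 and TAIR10 are named, without versions, in the submitters' processing notes. The deposited log2 fold changes were not used, and of the deposited p-values the adjusted ones were counted.

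Rosettes were tested with edgeR 4.0.16 (TMM, filterByExpr, quasi-likelihood, R 4.3.3) and seedlings with limma 3.58.1 (trend) on log2(value + 5) for genes averaging 10, fitted over all 12 libraries, so that folds of low genes are understated. Both were also run on simulated data with known folds. Apart from the changed genes, the simulated libraries shared the same composition and spread, unlike the real libraries, so that run does not show how the tests perform here. Adjusted p-values are Benjamini-Hochberg over all genes, threshold 0.05. DESeq2 1.42.0 was an alternative. Shares used exact permutation tests (scipy 1.17.1). Depth was 15912781 to 26322823 counts (rosettes) and 1208836 to 27853214 reads (seedlings). Named genes were the 2 of each class with the highest mean rosette level per kb, unless said otherwise. Groups came from the labels. Members, classes and lists were chosen with earlier results of these data known. No sequences are shown.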

Additional observations from a re-analysis of the deposited data

How the results depend on the processing

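No organelle gene was called in 89 of 89 seedling settings and in 7 of 9 rosette settings. Counts of all genes called in rosettes (0 in edgeR) were 7 with DESeq2 and 3 with the replicate block. Leaving out each rosette library gave 2 to 11464 calls, with 0 to 73 organelle genes. Without vrn2-5 pif4-2 replicate 1 there were 11464 of 19127 genes tested (73 of 97 organelle genes), and without replicate 2 there were 1825 of 19229 (45 of 106), where the lone library is assumed to vary like pif4-2. With only replicate 1 kept, the median log2 fold change was 1.66 over plastid, 0.55 over mitochondrial and -0.01 over all genes tested. With only replicate 2 kept, these medians were -0.29, -1.20 and -0.12. Log2 fold changes ran from -0.92 to 3.74 for psbA, -0.41 to 3.51 for rbcL, -2.14 to 0.37 for atpB and -0.29 to 2.35 for ATMG00020. The share difference ran from -45.0 to 909.0 plastid and -6.05 to 134.1 mitochondrial CPM. The negative values of psbA, rbcL, ATMG00020 and both shares came without vrn2-5 pif4-2 replicate 1, and the positive value of atpB came without replicate 2.

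In seedlings, DESeq2 called 11 genes for vrn2-5 against Col-0, 55 for prt6-1 against Col-0, 68 for vrn2-5 prt6-1 against Col-0, 63 for vrn2-5 prt6-1 against vrn2-5 and 6 for the interaction, and edgeR 0 for the interaction. The deep libraries alone, chosen after seeing the data, gave 0, 2, 6, 7 and 0 in that order. Fits of the compared groups alone gave 1 for vrn2-5 and 23 for vrn2-5 prt6-1 against Col-0, and a term for replicate 3 gave 57 for the latter and 54 against vrn2-5. Leaving out single libraries gave 1 to 23 for vrn2-5, 21 to 51 for prt6-1 and 23 to 53 for vrn2-5 prt6-1 against Col-0, the highest all without Col-0 replicate 3, and 0 to 5 for the interaction. Without vrn2-5 replicate 1 there were 17 for vrn2-5 against Col-0 and 5 for the interaction, and without vrn2-5 prt6-1 replicate 1 there were 23 for vrn2-5 prt6-1 against Col-0. The lowest for vrn2-5 against Col-0 came without Col-0 replicate 1, as did that for the interaction. Share differences that changed sign ran from -4.84 to 8.68 mitochondrial RPM (prt6-1 against Col-0), and from -72.2 to 42.5 and -86.0 to 27.3 plastid RPM (vrn2-5 prt6-1 against prt6-1 and vrn2-5), turning without prt6-1 replicate 3 (also without Col-0 replicate 1 for the first), prt6-1 replicate 3 and vrn2-5 replicate 2. The cause was not tested.

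The replicate block gave 4, 30, 44, 0, 38 and 1 calls over the seedling comparisons in the order of the report. Same-numbered libraries correlated at 0.04 in rosettes and at -0.22 to 0.56 over 18 seedling pairs, 11 of them over 0.1, and 5 of 12 seedling libraries correlated best with their own number. The 6 pairs among replicate 3 libraries were all over 0.1, from 0.288 to 0.560. Those of the other numbers ran from -0.22 to 0.260, some over 0.1 and some not. Number 3 thus marks libraries that deviate together, while the numbers as a whole were not taken to pair the libraries. With 2 or 3 libraries a group, and 6 seedling libraries of at most 1786079 reads, small differences in genes of a few reads were not detectable.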
